A study of Mus musculus with 16 samples.

Results

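Skeletal muscle of mice labelled CHCHD4 Tg (Tg below) was compared with skeletal muscle of wild-type (WT) mice over both training states, with training as a covariate. All 16 RNA-seq libraries of the study entered the comparison: 8 Tg and 8 WT. The 4 groups were WT untrained, WT after treadmill training, Tg untrained and Tg after treadmill training, with 4 libraries in each. The labels give the genotype and the treatment of each group but no strain, age, sex, muscle, promoter or species of the transgene, or length of training. Nothing in them says that each library is a different animal, so p-values here measure library-to-library spread, which may be technical. In whole muscle, fewer cells of a type and less RNA per cell cannot be told apart.

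CHCHD4 (MIA40) is the import receptor and oxidase of the mitochondrial intermembrane space. It passes disulfide bonds to small cysteine-rich proteins as they enter, is itself re-oxidised by GFER (ALR), and is anchored by AIFM1. TRIAP1, named with innate immune signalling in the study's title, is one of its substrates, and assembly of the respiratory chain depends on several others.

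Library totals ranged from 40888325 to 61703724 expected counts, and 17490 genes were tested. WT untrained replicate 2 had the highest TMM factor (1.285), and its summed level of 74 nuclear oxidative phosphorylation genes was 5882 CPM (counts scaled to library size), against at least 8844 CPM in every other library. Alb, a liver gene, exceeded 10 CPM in 3 libraries, and Myh7, the slow myosin heavy chain, in 4.

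The WT untrained group as a whole stood apart from the other 12 libraries. It enters the comparison over both states, the untrained comparison and the difference between the states. At 11 genes its 4 libraries lay below all the others with a gap of more than 1.5-fold (on CPM plus 0.1), while no gene separated any of the other 3 groups in that way. Gm17167 on chromosome 4 ranged from 0.212 to 0.302 CPM in that group and from 3.52 to 8.09 CPM elsewhere. No read was assigned to the histone gene Hist1h4m in that group (0 counts in each library), against 28 to 122 counts in each of the other 12. Several of the 11 are unnamed gene models that lie close together on chromosomes 4 and 14, and RSEM divides reads among near-identical copies, so their single values are uncertain. In the opposite direction, Zfc3h1 on chromosome 10 was at 34.3, 30.6, 25.0 and 24.7 CPM in WT untrained and at no more than 17.7 CPM elsewhere, and its neighbour Thap2 was likewise highest in that group.

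**Figure D1:**
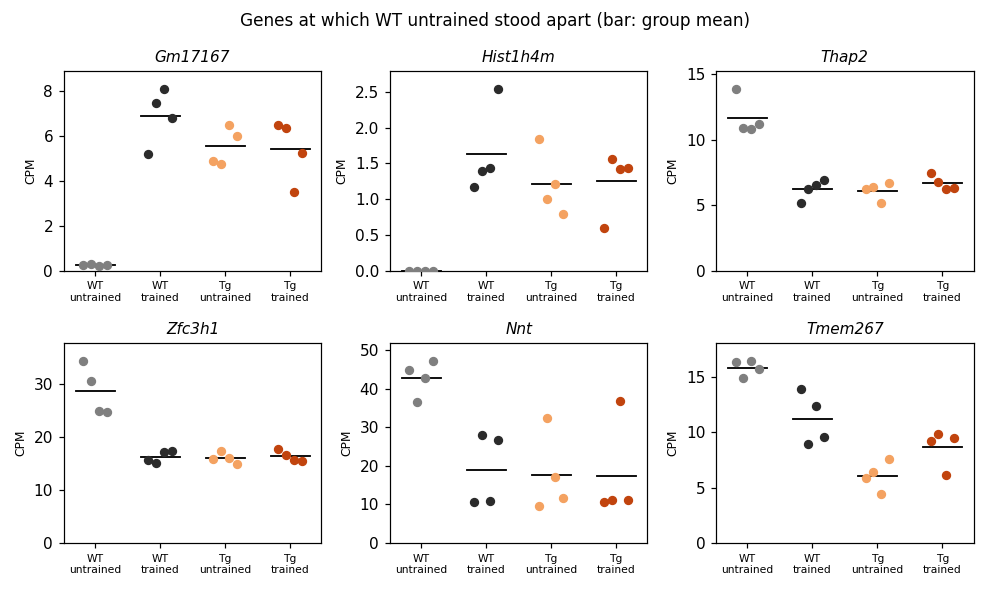
CPM (vertical axis, from 0) of 6 genes in each library, by group, with a bar at the group mean. For Gm17167, Hist1h4m, Thap2, Zfc3h1 and Tmem267 the 4 WT untrained libraries lie outside the range of the other 12; Nnt is the sum of its 2 gene models.

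Nnt, the mitochondrial transhydrogenase that makes NADPH, varied in steps between libraries. Its summed level was 44.8, 36.5, 42.8 and 47.2 CPM in WT untrained and 10.6, 27.9, 10.8 and 26.8 CPM in WT trained. In Tg it was 9.57, 32.5, 17.02 and 11.6 CPM untrained and 10.6, 11.2, 36.9 and 11.1 CPM trained. All 4 WT untrained libraries were therefore high, while the other groups each held high and low libraries. As background, C57BL/6J mice carry a deletion within Nnt that related substrains lack. Strain is not in the labels, its part in these values was not tested, and in the untrained comparison the transgene and whatever else sets WT untrained apart cannot be told apart.

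Over both training states, 133 genes passed a Benjamini-Hochberg adjusted p of 0.05 in edgeR's quasi-likelihood test ("called" below), which is 0.760% of the genes tested. Of these, 74 were higher in Tg (0.423%) and 59 lower (0.337%). All 133 had the same sign in both training states, against 61.3% of all genes tested. The overall test averages the states, so that agreement is partly built into the call. An unadjusted p under 0.05 in each state with the same sign was reached by 127 of the 133 and by 2.08% of all genes tested, but these tests use the same libraries as the call. The 8 Tg and 8 WT libraries did not overlap at 35 of the 133, with Tg above at 20 and below at 15. Over all genes tested they did not overlap at 54 (0.309%), with Tg above at 23 (0.132%) and below at 31 (0.177%). Most changes were small: 70 of the 133 were under 0.5 on the log2 scale, 13 reached 1, and the medians were 0.45 for the higher and -0.54 for the lower genes. In 99 of the 133 the change was larger in the untrained state. The median log2 fold change (log2FC) of the higher genes was 0.50 untrained and 0.36 trained, and that of the lower genes -0.58 and -0.40.

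Taken alone, the untrained comparison gave 130 calls (0.743%) and the trained comparison 2 (0.0114%). At an unadjusted p under 0.05 these were 16.2% and 7.98% of genes. Without the 4 WT untrained libraries, the additive fit called 5 genes, and only Chchd4 and Spns2 of the 133 were among them. Without the 4 WT trained libraries, which leaves the same number of libraries, it called 140 genes, 43 of them among the 133. With 1 WT group left out, the Tg term compares Tg with WT in the other training state alone. These 2 fits therefore restate the trained and the untrained comparison with fewer libraries. All 133 kept their sign in both, which was fixed beforehand by their same sign in each state. Leaving out 1 library at a time gave between 3 calls (without Tg trained replicate 3) and 298 (without WT trained replicate 2). Without WT untrained replicate 2 there were 237. WT untrained lay wholly above or below the other 12 libraries at 156 genes (0.892% of those tested), and at 14 of the 133 called (10.5%), including Tmem267, Hspa8, Notch3 and Ednra. The other groups were set apart in this way at 36 genes (WT trained, 1 of them called), 123 (Tg untrained, 5 called) and 95 (Tg trained, 5 called). The call itself compares these groups, so the shares among called genes are a description.

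**Figure D2:**
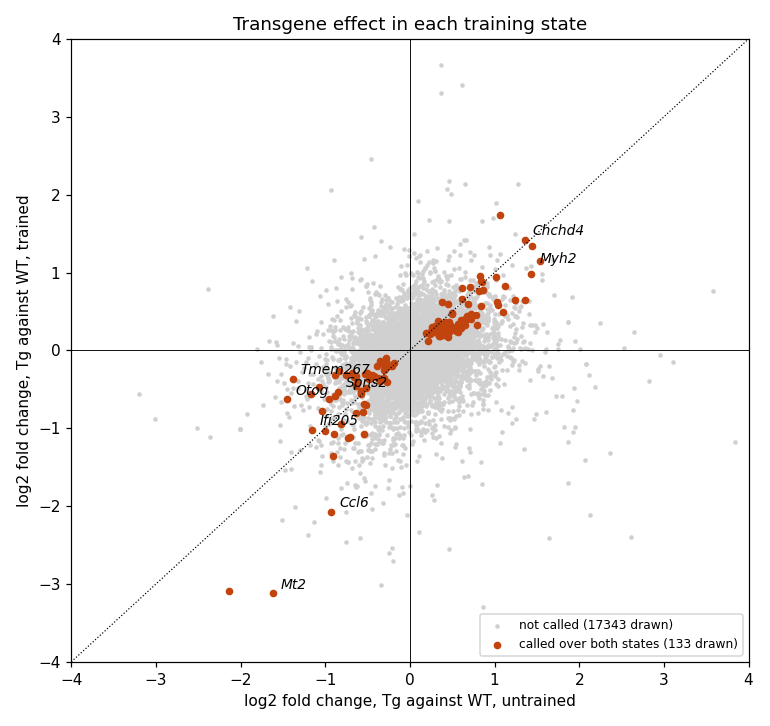
Log2 fold change of Tg against WT in the untrained state (horizontal axis) and in the trained state (vertical axis) for each gene tested, with genes beyond 4 in either state not drawn and the dotted line marking equal change. The 133 called genes (dark points) all lie in the lower left or upper right part, where both changes have the same sign.

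The targeted gene had the smallest p of all genes tested. Chchd4 was at 6.88 to 8.98 CPM in the 8 WT libraries (median 8.08) and at 18.1 to 22.2 CPM in the 8 Tg libraries (median 21.6), with no overlap. Its log2FC was 1.39 (SE 0.058, edgeR adjusted p = 2.05e-10), with 1.36 in untrained and 1.42 in trained muscle. Chchd4 was also among the 2 genes called in the trained state alone. Its partners did not pass the test. Gfer had a log2FC of -0.14 (adjusted p = 0.154) and Aifm1 of 0.08 (adjusted p = 0.625). Triap1 was at a median of 4.47 CPM in WT and 4.16 CPM in Tg (log2FC -0.11, SE 0.058, adjusted p = 0.376). None of 37 disulfide relay substrates was called, and their median log2FC was 0.00 to 2 decimals, like that of all genes tested.

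Of 74 nuclear oxidative phosphorylation genes, 71 had a positive log2FC, with a median of 0.06, and none was called. Without WT untrained replicate 2 that median was -0.01. The 13 mitochondrially encoded genes had a median of 0.08, with none called.

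Spns2, an exporter of the lipid mediator sphingosine-1-phosphate, fell in both states. It was at 31.4 to 53.1 CPM in WT (median 38.7) and at 20.8 to 29.2 CPM in Tg (median 25.8), so every Tg library was below every WT library. Its log2FC was -0.69 (SE 0.090, adjusted p = 0.00595), with -0.84 untrained and -0.53 trained. Sra1, which encodes a co-activator of steroid receptors, ranged from 13.8 to 15.6 CPM in WT and from 8.63 to 13.0 CPM in Tg. The genotypes did not overlap, and the log2FC was -0.38 (SE 0.054, adjusted p = 0.0116). Chchd4, Spns2 and Sra1 were the 3 genes still called whichever single library was left out. Sra1 was not called without the 4 WT untrained libraries (log2FC -0.31, adjusted p = 0.262). Gpt2, the mitochondrial alanine aminotransferase, was at 174 to 210 CPM in WT and 140 to 161 CPM in Tg (log2FC -0.33, SE 0.052, adjusted p = 0.0223). These 3 falling genes were chosen for description after their values were seen.

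**Figure D3:**
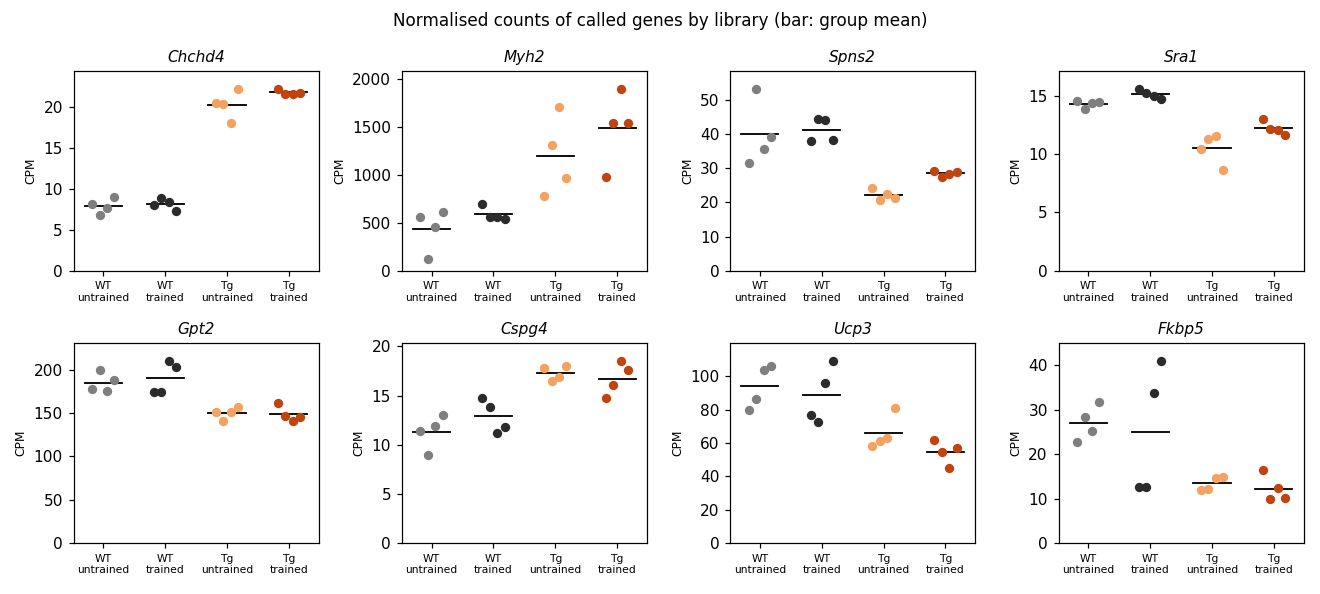
CPM (vertical axis, from 0) of 8 genes in each library, by group, with a bar at the group mean. Chchd4, Myh2, Spns2, Sra1, Gpt2 and Cspg4 show no overlap between the 8 WT and the 8 Tg libraries, while Ucp3 and Fkbp5 overlap.

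Among contractile genes, Myh2, the myosin heavy chain of fast oxidative (type IIa) fibres, rose. It ranged from 127 to 697 CPM in WT (median 562) and from 786 CPM upward in Tg, with all Tg libraries above all WT libraries. Its log2FC was 1.39 (SE 0.25, adjusted p = 0.0223), 1.44 in untrained and 1.34 in trained muscle. The gene model 9430073C21Rik overlaps Myh2 on the opposite strand and was also called (log2FC 0.82). Counting is not stated to use strand, so reads of the pair cannot be told apart. Myh2 was the only called gene of the 15 on the fast-twitch list, of which 12 had a negative log2FC. None of 15 slow-twitch genes was called. Their median log2FC was 0.83 untrained and -0.15 trained, and over both states it went from 0.43 to 0.05 without Tg untrained replicate 2. A positive log2FC was found for 14 of the 15 over both states, 11 untrained and 7 trained. Their summed level was 228.2 to 670.5 CPM in WT untrained and 820.8 to 978.9 CPM in Tg untrained. After training it was 479.5 to 955.8 CPM in WT and 1117 to 1522 CPM in Tg. Myh7 was at 64.3 and 42.1 CPM in Tg untrained replicates 2 and 3, at 29.7 CPM in WT trained replicate 3 and at 11.2 CPM in WT untrained replicate 2, and at or below 10 CPM in the other 12 libraries. The labels do not name the muscle, and the part of fibre mix was not tested.

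Of 27 genes of fatty acid uptake and oxidation, 2 were called, both lower (0.337% of all genes tested were called lower). Ucp3, a mitochondrial uncoupling protein of muscle, was at 72.6 to 109 CPM in WT and 44.9 to 80.7 CPM in Tg (log2FC -0.61, SE 0.10, adjusted p = 0.0223). Pdk4, the kinase that turns off pyruvate dehydrogenase, had medians of 212 CPM in WT and 142 CPM in Tg (log2FC -0.56, SE 0.12, adjusted p = 0.0438). The rest of the list did not follow them, since 22 of the 27 had a positive log2FC.

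The interferon-inducible p200 family encodes DNA-binding proteins of innate immunity. Of 10 tested, 3 were called, all lower (0.337% of all genes tested were called lower). A negative log2FC was found for 8 of the 10 (median -0.56, or -0.30 without the 3 libraries high in Alb). Macrophage markers were lower beside them (16 of 16 negative, median -0.70), and their part in the p200 values was not tested. The 3 lie within 1 Mb on chromosome 1 of GRCm38: Ifi207 at chr1:173723427-173741747, Ifi204 at chr1:173747293-173766943 and Ifi205 at chr1:174011998-174031810, all on the minus strand. Members of this family are close in sequence, so the split of reads between them is uncertain. Ifi205 was at 3.24 to 12.5 CPM in WT (median 10.1) and at 2.91 to 6.19 CPM in Tg (median 4.43), and the ranges overlap. Its log2FC was -1.09 (SE 0.19, adjusted p = 0.0223). Ifi204 had a log2FC of -0.98 and Ifi207 of -0.92. With the 4 WT untrained libraries left out the values were -1.02, -1.07 and -0.78, and none was called (adjusted p = 0.275, 0.218 and 0.267).

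The sequences around the starts of these genes are shown because 7 of the 46 lower genes with a RefSeq promoter window hold the interferon-stimulated response element (GAAA, any 2 bases, GAAA), against 1 of the 57 higher genes and 3.993% of all 27025 genes with a window. The windows run from 250 bases before to 50 after the start, and both strands were searched. The 7 are Cd59a, Gpr18, Ifi205, Ifi207, Sgk1, Slfn8 and Tmem140. Ifi205 and Ifi207 belong to the same family and are nearly alike in sequence around the element, so they are not separate matches. The 27025 genes include genes that were not tested here. It was 1 of 9 motifs searched, all chosen after the genes were seen, and a match is a description of the letters. The gamma-activated site (TTC, any 3 bases, GAA), the other interferon element, was in 4 of the 46 lower and 7 of the 57 higher genes (9.554% of all genes). The heat shock element (GAA, any 2 bases, TTC, any 2 bases, GAA) was in none of either (0.662% of all genes). The glucocorticoid element (ACA, any 3 bases, TGT) was in 4 lower and 6 higher genes (7.9% of all genes). The antioxidant element (TGAC, any 3 bases, GC) was in 14 and 11 (13.991%), and the PU.1 site (AGGAAGT) in 5 and 4 (10.679%). The metal response element was in 11 lower and 16 higher genes as TGCGCNC (17.036%) and in 10 and 9 as TGCACNC (14.205%). Below, capitals mark the element (RefSeq, GRCm38.p6, each 5′ to 3′ on the gene's strand), for Ifi207 at chr1:173741760-173742059, Ifi205 at chr1:174031706-174032005 and Slfn8 at chr11:83020761-83021060, all minus.
Ifi207: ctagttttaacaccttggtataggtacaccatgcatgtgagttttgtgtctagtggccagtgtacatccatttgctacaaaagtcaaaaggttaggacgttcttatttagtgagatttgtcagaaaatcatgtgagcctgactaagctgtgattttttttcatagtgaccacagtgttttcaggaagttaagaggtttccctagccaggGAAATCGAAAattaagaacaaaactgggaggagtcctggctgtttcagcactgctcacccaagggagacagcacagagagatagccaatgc
Ifi205: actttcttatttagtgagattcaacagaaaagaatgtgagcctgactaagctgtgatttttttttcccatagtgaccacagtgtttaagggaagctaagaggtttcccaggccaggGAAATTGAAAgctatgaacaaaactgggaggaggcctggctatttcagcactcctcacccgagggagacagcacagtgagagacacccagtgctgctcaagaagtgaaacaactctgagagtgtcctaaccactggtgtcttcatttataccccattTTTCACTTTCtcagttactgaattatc
Slfn8: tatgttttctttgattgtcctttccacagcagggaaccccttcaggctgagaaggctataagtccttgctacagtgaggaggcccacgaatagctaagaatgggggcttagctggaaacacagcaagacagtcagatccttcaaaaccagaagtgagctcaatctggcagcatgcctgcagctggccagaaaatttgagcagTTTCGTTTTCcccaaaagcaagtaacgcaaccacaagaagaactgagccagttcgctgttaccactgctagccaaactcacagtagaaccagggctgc

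Slfn8, an interferon-inducible gene of the Schlafen family, was at 0.619 to 1.19 CPM in WT and 0.330 to 0.655 CPM in Tg (log2FC -0.80, SE 0.18, adjusted p = 0.0455). The wider type I interferon list had no called gene of 36, with 25 negative and a median of -0.11. Of the sensors upstream, Cgas (log2FC -0.07, adjusted p = 0.900) and Sting1 (0.10, adjusted p = 0.752) did not pass the test.

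**Figure D4:**
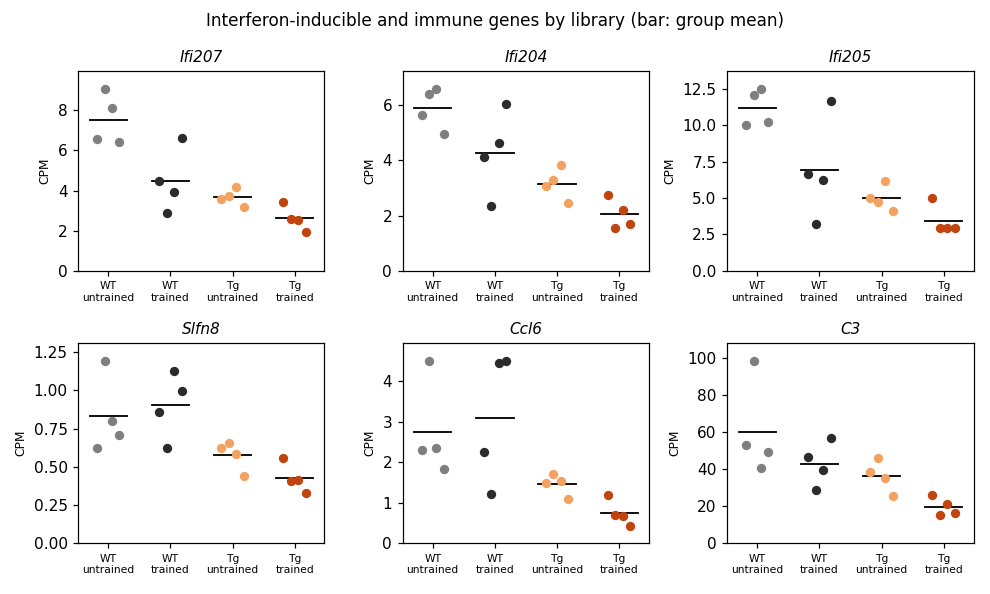
CPM (vertical axis, from 0) of 3 p200 genes, Slfn8, Ccl6 and C3 in each library, by group, with a bar at the group mean. The Tg group means lie below the WT means in each training state, and single libraries overlap.

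Single immune genes outside that family were also called lower. C3, the central complement component, was at 28.7 to 98.4 CPM in WT and 15.4 to 46.2 CPM in Tg (log2FC -0.93, SE 0.19, adjusted p = 0.0360). The chemokine gene Ccl6 had a log2FC of -1.46 (adjusted p = 0.0360), with -0.93 untrained and -2.07 trained. Pirb, an inhibitory receptor of myeloid cells, had -0.91, and Hmox1, the haem-degrading enzyme, -0.88. Syk, Il1r1, P2ry6 and Gpr18 were lower by 0.55 to 0.72 on the log2 scale, Syk and Il1r1 being chosen after their values were seen. Macrophage markers moved with these genes: all 16 tested were on the negative side (median log2FC -0.70), 13 had an unadjusted p under 0.05 (16.8% of all genes tested did), and none was called. By state the median was -0.375 untrained and -1.05 trained, with all 16 negative in each. Their summed level ranged from 38.7 to 120.5 CPM in WT and from 34.0 to 71.6 CPM in Tg. It was highest in WT trained replicate 4, and the median log2FC over both states was -0.53 without that library. The part of macrophage content in these genes was not tested.

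Of 12 smooth muscle and pericyte markers, 3 were called, all higher (0.423% of all genes tested were called higher). The list as a whole had a median log2FC of 0.115, with 0.227 untrained and 0.041 trained. Without WT untrained replicate 2 the median was 0.05. The sign was the same in both states for 7 of the 12, against 61.3% of all genes tested. Cspg4 (NG2) was at 8.94 to 14.71 CPM in WT (median 11.9) and 14.73 to 18.5 CPM in Tg (median 17.2), without overlap (log2FC 0.49, SE 0.080, adjusted p = 0.0223). Pdgfrb, the receptor that recruits pericytes, was at 19.2 to 27.1 CPM in WT and 27.8 to 35.7 CPM in Tg (log2FC 0.36, SE 0.069, adjusted p = 0.0298). Notch3 had a log2FC of 0.39 (adjusted p = 0.0438). Ednra, Agtr1a and Mrvi1, which encode the endothelin receptor, an angiotensin receptor and an effector of cGMP signalling in smooth muscle, were higher by 0.52, 0.39 and 0.40. Agtr1a and Mrvi1 were chosen after their values were seen. All 15 endothelial markers had a positive log2FC (median 0.20) and none was called. An unadjusted p under 0.05 was reached by 10 of them and by 16.8% of all genes tested. In untrained muscle all 15 were positive (median 0.293), and in trained muscle 12 were (median 0.117). Without the 4 WT untrained libraries Cspg4 had a log2FC of 0.38 and Pdgfrb of 0.32, and neither was called (adjusted p = 0.228 and 0.267).

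Among chaperones, Hspa8, the constitutive HSP70, fell from a median of 671 CPM in WT to 550 CPM in Tg (log2FC -0.28, SE 0.048, adjusted p = 0.0223). It was the only called gene of 19 on the heat shock and folding list, of which 14 had a negative log2FC (median -0.15). The co-chaperone Stip1 and the chaperonin subunit Cct3 were called with -0.25 and -0.22. Of the endoplasmic reticulum, the disulfide isomerase Pdia6 was at 15.05 CPM or more in WT and at 12.5 to 14.6 CPM in Tg (log2FC -0.21, SE 0.041, adjusted p = 0.0309), without overlap. The translocon subunit Sec61b had -0.34 and the glycosylation subunit Rpn2 -0.22. Apart from Hspa8, these genes were chosen after their values were seen. The start of Pdia6 is shown because it was the only one of the 46 lower genes whose window held the endoplasmic reticulum stress element (CCAAT, any 9 bases, CCACG; both strands searched), which no higher gene and 0.137% of all genes with a window hold. Capitals mark it (chr12:17266339-17266638, plus strand).
Pdia6: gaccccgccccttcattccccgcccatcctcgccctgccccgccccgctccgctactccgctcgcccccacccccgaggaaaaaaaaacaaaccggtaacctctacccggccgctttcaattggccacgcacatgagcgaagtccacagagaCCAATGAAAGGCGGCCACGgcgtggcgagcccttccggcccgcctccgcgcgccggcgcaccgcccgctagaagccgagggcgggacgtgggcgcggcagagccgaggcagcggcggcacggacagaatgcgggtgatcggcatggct

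Fkbp5, a co-chaperone of the glucocorticoid receptor, fell: it was at 12.5 to 40.9 CPM in WT and 9.91 to 16.3 CPM in Tg (log2FC -1.02, SE 0.21, adjusted p = 0.0371). In WT trained, 2 libraries were near 12.5 CPM, within the Tg range. Mt2, a metallothionein, was at 1.21 to 11.7 CPM in WT and 0.272 to 2.56 CPM in Tg (log2FC -2.29, SE 0.47, adjusted p = 0.0360). The kinase gene Sgk1, chosen after its values were seen, had a log2FC of -0.49. Nr3c2, the mineralocorticoid receptor, rose by 0.29 in log2FC, with all Tg libraries above all WT libraries. Trim63, an atrophy ligase, had -0.81 and did not pass (adjusted p = 0.0944). It reached 277 CPM in a single WT library.

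Of the other large rises, Fxyd6, a regulator of the sodium pump, had a log2FC of 0.83, the transcription factor Tbx2 0.71, the receptor Kit 0.71, the transcriptional co-regulator Cited2 0.64 and the ligand Efnb2 0.62. Mboat2, Meox2, Wnt5a and Zfp503 rose by 0.52 to 0.56. Kit is also a mast cell marker. The mast cell genes Cpa3, Mcpt4 and Cma1 had log2FC of -0.48, -0.38 and -0.30, none called, and the part of mast cells in the Kit value was not tested. Lrp4, the agrin receptor of the neuromuscular junction, rose by 0.33, and Per3 by 0.28. Of the other large falls, Otog, at 1.08 to 2.60 CPM in WT and 0.494 to 1.05 CPM in Tg, had -1.03 and Npnt -0.77. Tmem267, which lies beside Nnt on chromosome 13, had -0.87 (adjusted p = 0.0309), with -1.38 untrained and -0.37 trained. Nnt itself was not called (log2FC -0.76, adjusted p = 0.322).

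No called gene had a transgene effect that differed between the training states by the interaction test; the lowest adjusted p among the 133 was 0.282, for Tmem267. At an unadjusted p under 0.05, 10 of the 133 differed, and DESeq2 called 37 interactions over all genes. Over all genes tested, edgeR's interaction test called 9 (0.0515%). The 5 with the smallest p at a mean CPM of at least 1, Gm17167, Gm13301, Hist1h4m, Thap2 and Zfc3h1, are the genes at which WT untrained stood apart from the other 3 groups.

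**Figure D5:**
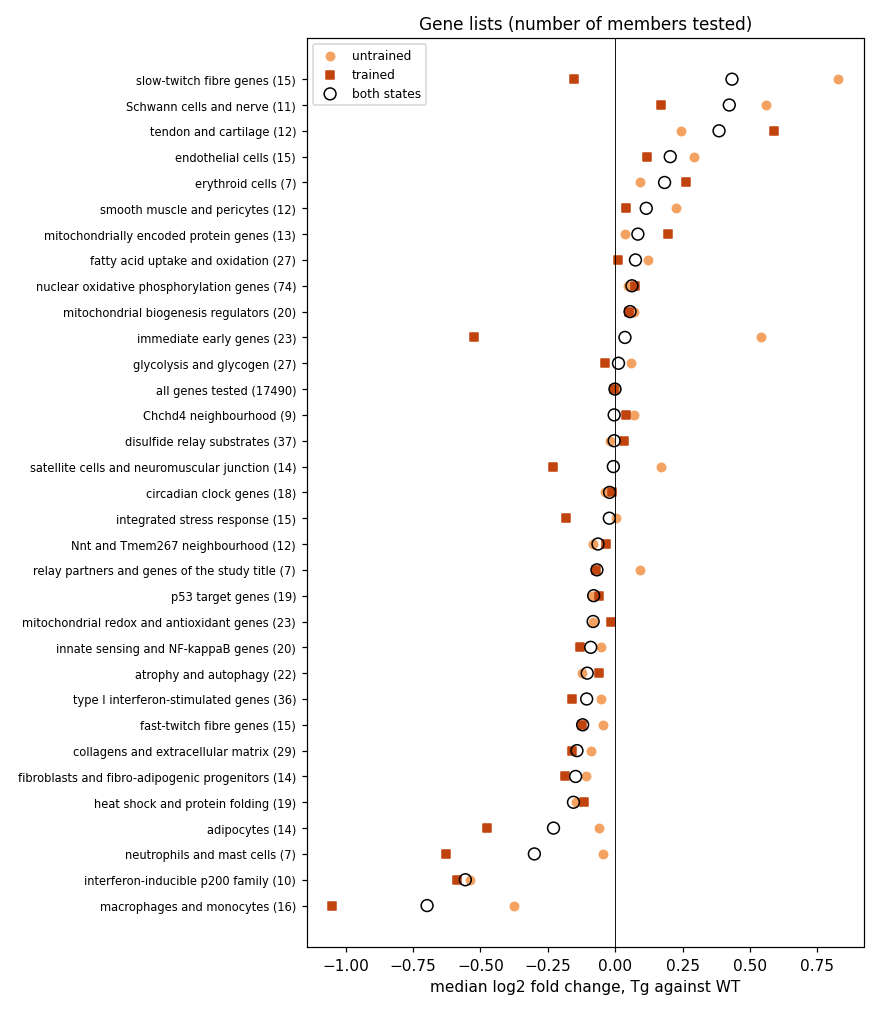
Median log2 fold change of Tg against WT (horizontal axis) for each gene list with at least 5 members tested, with the number of members in brackets. Filled circles are the untrained state, squares the trained state and open circles both; the macrophage list is lowest at -0.70 and the slow-twitch list highest at 0.43, with its states on opposite sides of 0.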

How the data were processed

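Per the labels' protocols, skeletal muscle RNA was isolated on columns (RNeasy) and converted to libraries by SMARTer chemistry. Per the submitters' processing notes, STAR 2.7.8a, RSEM 1.3.2 and the mm10 build were used; the annotation release and strand setting are not given in the sources used here. The deposited values are unnormalized RSEM expected counts of 55487 genes; 12.48% were not whole, and all were rounded. Genes passing filterByExpr by group (17490) were scaled by TMM and fitted in edgeR 4.0.16 (R 4.3.3) with training and genotype as additive terms over 16 libraries. A model with a mean per group gave each training state and the interaction. Tests are two-sided, SE is from the quasi-likelihood F, the biological coefficient of variation was 14.42%, and calls use a Benjamini-Hochberg adjusted p under 0.05. CPM are after TMM. Positions are GENCODE GRCm38, and promoter windows RefSeq GRCm38.p6, found for 103 of 133 called genes. The fit was also run on counts simulated with the same dispersion for every gene. These held no training effect and no library or group set apart, so that run does not bear on how calls depend on single libraries.

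No 2 replicates were within sampling noise (lowest chi-square per degree of freedom 7.06). That value was 124.99 to 141.85 for pairs with WT untrained replicate 2 and at most 45.31 for every other pair. Tested genes held 99.928% or more of every total. The members and gene lists were chosen with earlier results of these data known. Named were Chchd4, Triap1, Myod1, Cgas, Sting1, Aifm1, Gfer, Nnt and Tmem267, the 12 largest changes in each direction with a mean CPM of at least 1 and a gene name, up to 4 called members of a list (2 by p where none was called), called genes within 1 Mb of each other, and the 5 strongest interactions. Syk, Il1r1, Agtr1a, Mrvi1, Sgk1 and the genes so marked in the text were added after their values were seen. Not all of these are described. The alternatives were RLE scaling, 2 other filters, DESeq2 1.42.0, limma-voom (limma 3.58.1), robust dispersion, averaged group means, no covariate, a replicate block and each library left out. Leaving out libraries high in Alb or Myh7, or 1 WT group, was chosen after seeing the data. The comparison of each group with the other 12 libraries was also added after the data were seen.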

Additional observations from a re-analysis of the deposited data

Results flagged for a closer look

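The transgene effect differed between training states at 9 genes by edgeR's interaction test, of which the 5 with the smallest p at a mean CPM of at least 1 are given. The difference, trained minus untrained, was 1.04 on the log2 scale for Thap2, 0.85 for Zfc3h1 and -4.71 for Gm17167. For Hist1h4m (-9.29) and Gm13301 (-6.40) the WT untrained libraries held at most 4 counts, so these fitted values are not sizes. In all 5 the WT untrained group stood apart from the other 3.

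Single libraries stood apart within their group of 4 for 20 of the 364 group values looked at, and chance alone marks about 1 in 20 groups. In CPM, WT untrained replicate 2 was highest for Myod1 (11.9), Hmox1 (5.40) and Sgk1 (234), WT untrained replicate 1 for Thap2 (13.9) and WT untrained replicate 4 for Gm13301 (0.0806). WT trained replicate 3 was highest for Lgals3bp (8.30) and WT trained replicate 4 for Pdia6 (15.4). Tg untrained replicate 1 was highest for Gfer (15.2) and lowest for Wdr4 (3.11), replicate 3 highest for Gm37759 (4.83), and replicate 4 highest for Mt2 (2.56) and lowest for Cxcl13 (0.0183). Tg trained replicate 1 was highest for Ifi205 (4.98), Sgk1 (139.9) and Nr4a3 (2.62) and lowest for Hist1h4m (0.601). Tg trained replicate 2 was lowest for Csf2ra (0.351). Tg trained replicate 3 was highest for Nnt (36.9) and Fxyd6 (23.5) and lowest for 1810041H14Rik (0.138).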

How the results depend on the processing

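All 133 called genes kept their sign under every alternative in which they were tested, but the number of calls depended on single libraries. In the fits without 1 WT group the kept sign was fixed beforehand, since they restate the comparison in the other training state. Leaving out 1 library gave 3 to 298 calls over both states (1 to 173 higher, 2 to 128 lower), 43 to 138 untrained, 1 to 16 trained and 6 to 12 interactions. Calls with the same direction in both states ranged from 3 to 298, and genes with an unadjusted p under 0.05 in each state from 252 to 444. Of 67 called genes followed, 3 kept the call in all 16 such fits and 46 lost it in at least 8. Without the 4 WT untrained libraries there were 5 calls (3 higher, 2 lower); without the 4 WT trained libraries 36 were lower. DESeq2 called 610 genes, all 133 among them (297 higher, 313 lower, 607 with the same direction), 442 untrained, 55 trained and 37 interactions. Without a filter on low counts there were 15 interactions and 1 trained call, and with a CPM of at least 1 in 4 libraries 1 trained call. Without the libraries high in Myh7 there were 74 calls, all with the same direction (32 higher), 32 untrained and 4 interactions, and 34 of the 133 were among the calls. Without those high in Alb, 36 were higher, and 58 of the 133 were among the calls. Signs turned for Cgas (from -0.1735 without WT untrained replicate 1 to 0.005966 without WT trained replicate 3, and 0.21 without the WT trained group), Sting1 (-0.0283 without the libraries high in Alb and -0.0329 without those high in Myh7) and Aifm1 (-0.00808 without those high in Alb), none of them called. The cause was not tested; leaving out libraries also leaves fewer samples.

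By the median correlation of deviations, same-numbered libraries were no closer than others (0.0015 against 0.0065). Over 24 same-numbered pairs it ranged from -0.153 to 0.176, and 6 were over 0.1. Of 16 libraries, 7 correlated best with their own number, a count that was not tested. With the replicate block, 93 genes were called over both states, 66 untrained, 1 trained and 7 interactions.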

Other observations

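Schwann cell and nerve markers had a positive log2FC for all 11 tested (median 0.42), with none called. An unadjusted p under 0.05 was reached by 2 of them and by 16.8% of all genes tested. The median was 0.19 without Tg untrained replicate 3, where their summed level was 88.6 CPM. Without the libraries high in Myh7 it was 0.07. Erythroid genes were positive for all 7 tested (median 0.18). Immediate early genes had a median of 0.54 untrained and -0.53 trained over 23 genes, with none called over both states. Fibroblast markers were negative for 12 of 14 (median -0.15), and Lgals1, a secreted lectin chosen after its values were seen, fell without overlap from a median of 62.2 CPM in WT to 48.6 CPM in Tg (log2FC -0.38, edgeR adjusted p = 0.0223).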
